A study of Mus musculus with 6 samples.

Results

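The Toll-like receptor genes are described here as 10 genes, Tlr1 to Tlr9 and Tlr13, which are all the rows of the expression table whose gene symbol is one of these names, 10 of 54532 genes. They were measured by RNA-seq of poly-A RNA in bone-marrow-derived macrophages (BMDMs) of C57BL/6 mice, cells grown from bone marrow with medium conditioned by L929 cells. The 6 libraries form 3 groups of 2, called A and B within each group: untreated BMDMs (Untr), BMDMs stimulated with LPS at 100 ng/ml for 2 h (LPS), and BMDMs that received 5 mM metformin for 6 h before the same LPS stimulation (Met + LPS). No library received metformin alone, so that Met + LPS can be compared only with LPS and with Untr. By the study's methods A and B are duplicate cultures, and nothing says whether they come from different mice or whether a letter marks the same animals in every group, so that the p-values measure the spread between these cultures. The genotype and strain are the same in all groups.

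Toll-like receptors are membrane proteins of the innate immune system that each recognise a class of microbial molecules. TLR4 senses LPS, which covers the outer surface of Gram-negative bacteria, together with Ly96 and CD14. TLR2 senses bacterial lipopeptides as a dimer with TLR1 or TLR6, and TLR5 senses flagellin, all at the cell surface. TLR3, TLR7, TLR8, TLR9 and TLR13 sit in endosomes, where they meet nucleic acids: double-stranded RNA for TLR3, single-stranded RNA or its breakdown products for TLR7 and TLR8, unmethylated CpG DNA for TLR9 and bacterial ribosomal RNA for TLR13. All but TLR3 signal through the adaptor MyD88. TLR3 uses TRIF, the product of Ticam1, and TLR4 uses both adaptors.

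Levels are given as transcript abundances (TPM), the unit of the deposited values. TPM divides the reads of a gene by its length and scales every library to the same total, so that levels of different genes can be compared. The length that gave back whole reads was that of all annotated exons of a gene. For Tlr4 it was 5556 bases, against 4077 for the annotated transcript listed with it, and for Tlr2 both were 3014. The order of close levels can therefore depend on the length used, which was not tested. Reads recovered from the TPM values amounted to 25457016 to 30762754 on genes per library. The 4 genes of the response check, Tnf, Il1b, Il6 and Cxcl10, were all higher after LPS, with log2 fold changes of 6.93 to 9.53. All 7 macrophage markers passed the filter on low values, and their summed level was 43710 and 45600 TPM in Untr, 35264 and 34526 TPM in LPS and 28763 and 28884 TPM in Met + LPS. Most of this sum was Lyz2 (33981 and 35844, 26974 and 26696, and 21203 and 21381 TPM in the same order). With a limma adjusted p below 0.01, 1 marker was higher and 5 were lower in LPS than in Untr as deposited. After rescaling by the median ratio over genes 4 were higher and 1 was lower. In Met + LPS against LPS 0 were higher and 5 lower on both scales. The summed markers of B cells (0.766 to 3.18 TPM), T cells (0 to 0.137 TPM, Cd3g at 0 in all libraries), dendritic cells (0.537 to 2.80 TPM), erythroid cells (0 to 0.162 TPM, Hbb-bs and Hbb-bt at 0 in all libraries) and fibroblasts (0.352 to 0.767 TPM) were low. Those of neutrophils were 12.3 and 13.0 TPM in Untr, 19.0 and 15.2 TPM in LPS and 28.0 and 24.5 TPM in Met + LPS, those of mast cells or basophils were 21.1 and 20.6, 8.27 and 8.18, and 24.4 and 23.2 TPM in the same order, and those of endothelial cells ranged from 21.3 to 33.9 TPM. The mast cell or basophil sum was nearly all Kit (19.5 and 19.7, 7.92 and 8.00, and 24.2 and 22.9 TPM). Cpa3 of the same list was 1.56 and 0.920 TPM in Untr and 0.262 and 0.298 TPM in Met + LPS. The endothelial sum was nearly all Kdr, with Cdh5 at 0.134 to 0.293 TPM. These 2 sums thus each follow a single gene. The part of these shifts in the results below was not tested. In such bulk samples, fewer cells of a type and less RNA per cell cannot be told apart.

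In untreated BMDMs, transcripts of 3 endosomal receptors were the most abundant of the family. Tlr13 stood highest at 394 and 383 TPM in the A and B libraries, followed by Tlr7 (263 and 268 TPM) and Tlr8 (197 and 200 TPM). The LPS receptor gene Tlr4 came next at 125 and 129 TPM. Tlr2 (74.2 and 69.6 TPM), Tlr9 (57.4 and 63.4 TPM), Tlr1 (45.7 and 44.2 TPM), Tlr6 (20.5 and 20.4 TPM) and Tlr3 (12.9 and 12.1 TPM) followed. The flagellin receptor gene Tlr5 was near the limit of detection at 0.220 and 0.408 TPM, which rests on 8 and 14 reads. In this order, as in those of the LPS and Met + LPS libraries, the ranges of no pair of neighbours overlapped, although with 2 libraries per group a range is only a pair of values. The tested members rested on 451 to 47188 reads per library, and the SD of the 2 libraries was 0.0433% to 7.76% of their mean. Tlr11 (0 to 0.201 TPM) and Tlr12 (0 to 0.0439 TPM), the other Toll-like receptor genes in the table, had at most 5 reads in a library.

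**Figure D1:**
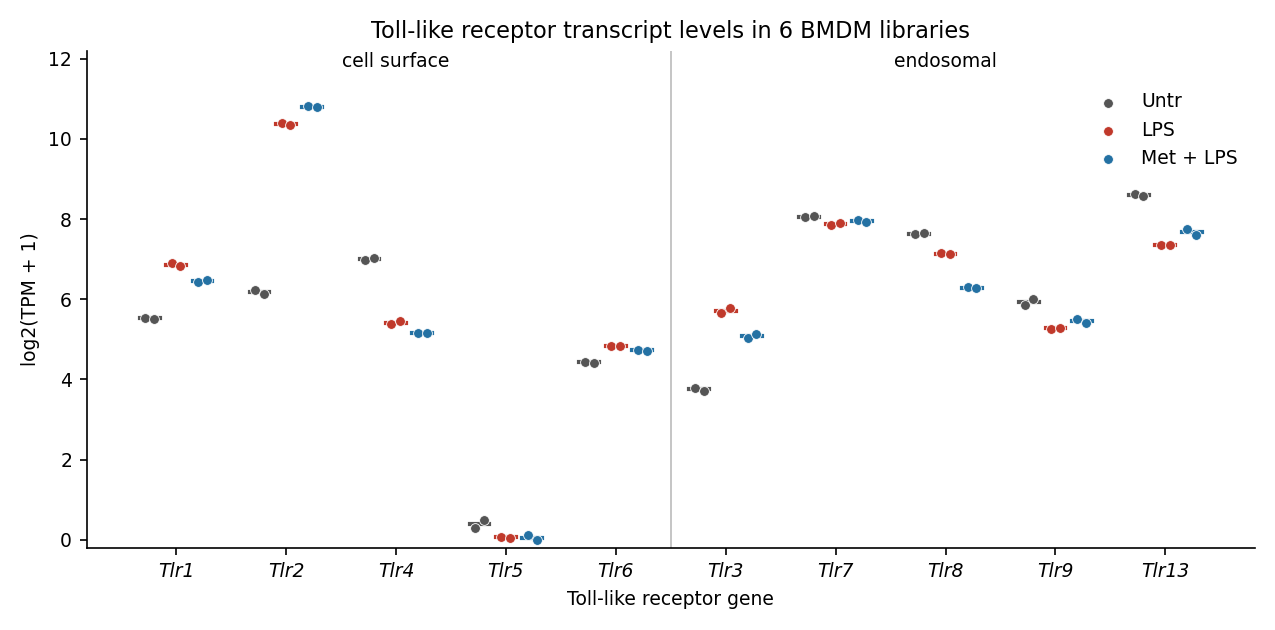
Level of each Toll-like receptor gene as log2(TPM + 1) in the Untr, LPS and Met + LPS libraries, cell surface receptors on the left and endosomal receptors on the right; points are single libraries and bars are means of 2. Tlr2 moves up from a mean of 71.9 in Untr to 1327 in LPS and 1783 TPM in Met + LPS, Tlr4 moves down from 127 to 41.8 and 34.7 TPM, and Tlr5 lies near 0 throughout.

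The first comparison, LPS vs. Untr, asks how the receptor genes stood after 2 h of stimulation of one of the receptors, TLR4. Transcripts of Tlr2, Tlr3, Tlr1 and Tlr6 were higher after LPS, and those of Tlr4, Tlr13, Tlr9, Tlr8 and Tlr7 were lower in TPM as deposited, with Tlr7 and Tlr8 changing sign (log2 fold changes of 0.34 and 0.03) when the libraries were rescaled by the median ratio over genes. With a limma adjusted p below 0.01 as the threshold, 9 of the 9 tested members differed, 4 higher and 5 lower. The same threshold was passed by 76.3% of all 12755 tested genes, 16.2% higher and 60.1% lower, so that passing it sets the receptors little apart from other genes. After rescaling, 5 members were higher and 2 were lower. Tlr2 was the only member past both cut-offs, a log2 fold change of 2 or more in either direction together with an adjusted p below 0.01, which 6.08% of the tested genes passed, 3.72% higher and 2.37% lower. Tlr5 did not reach 1 TPM in any library and was not tested. The median log2 fold change was -0.18 over the 9 members and -0.48 over all tested genes, and after rescaling it was 0.34 and -0.01.

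Tlr2 (ENSMUSG00000027995, GRCm38 chr3:83836272-83841767, minus strand) had 74.2 and 69.6 TPM in the Untr libraries and 1348 and 1306 TPM in the LPS libraries. Both LPS libraries lay far above both Untr libraries, the mean going from 71.9 ± 3.26 to 1327 ± 29.7 TPM (SD, n = 2 each), 18.4-fold. The log2 fold change on the log2(TPM + 1) scale was 4.19 with an SE of 0.04 (adjusted p = 3.2e-09 in limma), and 99.1% of tested genes had a lower one. Tlr3 (ENSMUSG00000031639, chr8:45395665-45411080, minus strand), the sensor of double-stranded RNA, had 12.9 and 12.1 TPM in Untr and 49.1 and 53.6 TPM in LPS. Its groups were also well apart, with means of 12.5 ± 0.559 and 51.4 ± 3.19 TPM (SD, n = 2 each), 4.11-fold. The log2 fold change of Tlr3 was 1.96 (95% interval 1.80 to 2.11, adjusted p = 5.7e-07 in limma), just under the fold cut-off, and it lay past the cut-off with a pseudocount of 0.1, after rescaling, with voom on recovered reads and without the LPS A library. Of the 5207 exonic bases of Tlr3, 381 overlap Gm45542 on the opposite strand, and the kit does not mark strand, so that reads of the pair cannot be told apart there.

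Tlr1 (ENSMUSG00000044827, chr5:64924679-64933563, minus strand) and Tlr6 (ENSMUSG00000051498, chr5:64952031-64960097, minus strand) encode the partners of TLR2 and lie side by side on the chromosome. Tlr1 had 45.7 and 44.2 TPM in Untr and 118 and 112 TPM in LPS, 2.56-fold (log2 fold change 1.34, adjusted p = 5.8e-07 in limma). Tlr6 had 20.5 and 20.4 TPM in Untr and 27.8 in both LPS libraries, 1.36-fold (log2 fold change 0.42, adjusted p = 9.2e-05 in limma). The 3 genes that encode the subunits of the TLR2 dimers were thus all higher, and by unequal amounts. Tlr1 and Tlr6 share sequence, with 80.0% and 83.4% of their 31-base stretches found in no other gene, and how reads from the shared stretches were divided is uncertain.

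The promoters of the pair of members with the largest log2 fold changes after LPS, and of Tlr8, the member with the largest difference between Met + LPS and LPS, are shown because members that moved differently can be compared in sequence. RefSeq sequences (GRCm38.p6) of 250 bases before to 50 after the start were at hand for 8 of the 10 members, 10 promoters in all; none was at hand for Tlr4 and Tlr7. They were searched on both strands for the NF-kappaB consensus motif, for the core of the interferon-stimulated response element, and for GAGGAA, the core of sites of the myeloid transcription factor PU.1. Each line gives the 250 bases before the start, read 5′ to 3′ on the strand of the gene, which is the minus strand for all 3. Capitals mark the NF-kappaB motif in Tlr2 and Tlr3 and the reverse complement of GAGGAA in Tlr8. The coordinates are chr3:83841609-83841858 for Tlr2, chr8:45410381-45410630 for Tlr3 and chrX:167264330-167264579 for Tlr8.
Tlr2: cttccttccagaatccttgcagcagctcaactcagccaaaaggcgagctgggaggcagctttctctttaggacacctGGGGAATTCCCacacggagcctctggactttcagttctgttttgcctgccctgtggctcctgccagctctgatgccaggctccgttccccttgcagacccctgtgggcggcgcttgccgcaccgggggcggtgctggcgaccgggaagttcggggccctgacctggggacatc
Tlr3: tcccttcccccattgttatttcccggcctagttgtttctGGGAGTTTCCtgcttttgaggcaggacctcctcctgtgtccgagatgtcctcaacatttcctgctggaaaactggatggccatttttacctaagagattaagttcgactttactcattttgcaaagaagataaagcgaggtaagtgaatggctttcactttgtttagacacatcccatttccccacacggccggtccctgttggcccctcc
Tlr8: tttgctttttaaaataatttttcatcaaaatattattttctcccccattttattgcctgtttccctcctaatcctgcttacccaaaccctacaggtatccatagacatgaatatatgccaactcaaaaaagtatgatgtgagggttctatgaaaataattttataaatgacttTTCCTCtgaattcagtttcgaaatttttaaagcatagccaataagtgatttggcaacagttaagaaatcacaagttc
The NF-kappaB motif was found in the promoters of 2 of the 8 members, Tlr2 and Tlr3. In Tlr2 it matched 3 times, in a pair of overlapping matches at positions -173 to -163 from the start and in a match that spans the start itself, and in Tlr3 it matched once, at positions -211 to -202. Of all 32851 RefSeq promoters of the same length, 8.46% hold it, and counted by gene, as for the members, 9.55% of 27025 genes do. GAGGAA occurred in Tlr1, Tlr8, Tlr9 and Tlr13 and in 28.3% of all promoters (31.3% of genes), and the core of the interferon-stimulated response element occurred among the members only at one start of Tlr6, in a pair of overlapping matches, and in 3.44% of all promoters (3.99% of genes). These matches describe the letters of the windows, and binding was not measured.

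Among the members that were lower, Tlr4 (ENSMUSG00000039005, chr4:66827584-66930284, plus strand) had 125 and 129 TPM in Untr and 40.4 and 43.1 TPM in LPS. Both LPS libraries lay well below both Untr libraries, and the mean of this LPS receptor transcript was 3.04-fold lower, 127 ± 2.87 against 41.8 ± 1.88 TPM (SD, n = 2 each). The log2 fold change was -1.58 with an SE of 0.04 (adjusted p = 2.9e-07 in limma), and it was -1.06 after rescaling (adjusted p = 2.1e-06 in limma). Tlr13 (ENSMUSG00000033777, chrX:106143204-106160493, plus strand), the most abundant member in Untr, had 394 and 383 TPM there and 163 and 161 TPM in LPS. Both LPS libraries lay well below both Untr libraries, 2.39-fold lower, and the log2 fold change was -1.25 (adjusted p = 2.0e-06 in limma) as deposited and -0.73 after rescaling. Tlr4 and Tlr13 were the members that passed the threshold as lower on both scales.

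The remaining endosomal receptors differed less from the median gene. Tlr9 (ENSMUSG00000045322, chr9:106222598-106226883, plus strand), the CpG DNA sensor, had 57.4 and 63.4 TPM in Untr and 37.2 and 38.1 TPM in LPS. Its log2 fold change, -0.67 (adjusted p = 5.3e-05 in limma), became -0.15 after rescaling (adjusted p = 0.0571 in limma). Tlr8 (ENSMUSG00000040522, chrX:167242696-167264329, minus strand) had 197 and 200 TPM in Untr and 142 and 138 TPM in LPS. Its log2 fold change, -0.50 (adjusted p = 1.4e-05 in limma), near the -0.48 of the median tested gene, was 0.03 after rescaling (95% interval -0.05 to 0.10). Tlr7 (ENSMUSG00000044583, chrX:167304929-167330558, minus strand), which lies next to Tlr8 on the X chromosome and senses related ligands, had 263 and 268 TPM in Untr and 230 and 238 TPM in LPS. The direction of Tlr7 depended on the scaling, since its log2 fold change was -0.18 as deposited (adjusted p = 0.00333 in limma) and 0.34 after rescaling (adjusted p = 2.5e-04 in limma). The deposited difference of Tlr7 also lost its call without Untr A, Untr B or LPS A and without a mean-variance trend. In none of the 9 tested members did the LPS libraries overlap the Untr libraries, which held for 91.6% of all tested genes.

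For Tlr5 (ENSMUSG00000079164, chr1:182954788-182976044, plus strand) only reads can be compared. It had 8 and 14 reads in Untr, 2 and 1 in LPS and 3 and 0 in Met + LPS. Relative to the reads of the libraries, the 22 reads of Untr against 3 of LPS give a level 7.31 times as high in Untr, with a 95% interval of 2.20 to 38.1 that covers counting error only. Between Met + LPS and LPS, with 3 reads each, the ratio was 0.908 (95% interval 0.122 to 6.78), so that no difference was detectable at this depth.

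**Figure D2:**
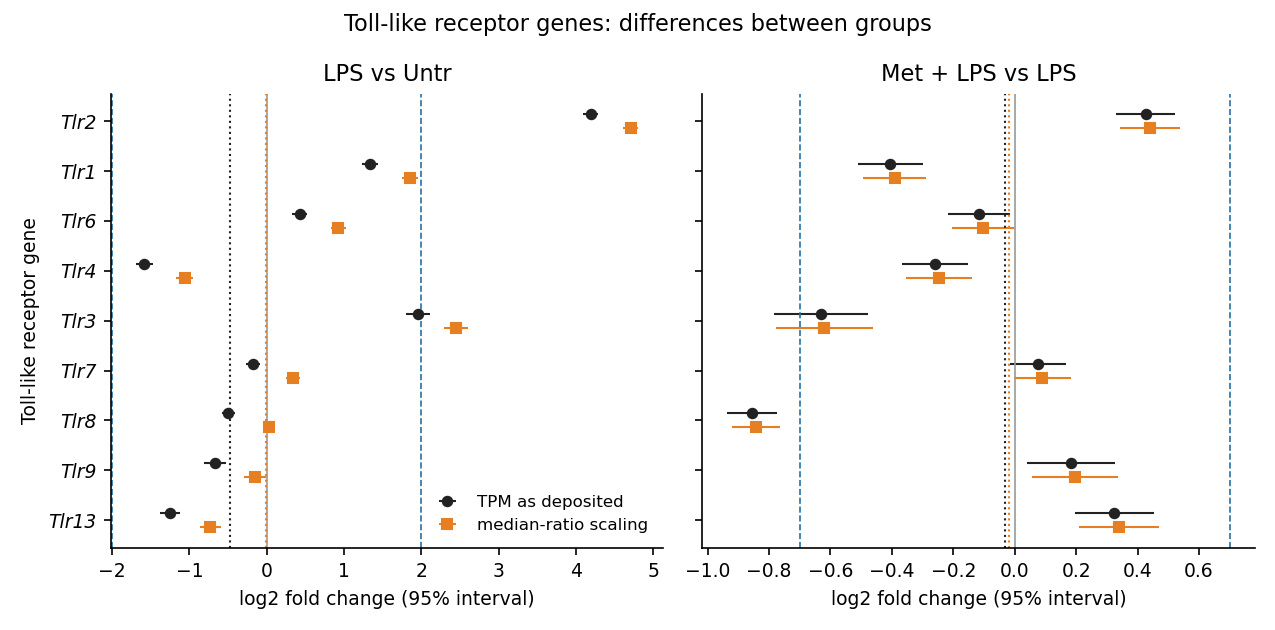
Log2 fold change of the 9 tested Toll-like receptor genes on the log2(TPM + 1) scale for LPS vs. Untr (left) and Met + LPS vs. LPS (right), with 95% intervals from limma; circles are TPM as deposited and squares the same values after median-ratio scaling. Dotted lines are the median of all tested genes on each scale and dashed lines the fold cut-offs (2 and 0.7). Rescaling moves every member to the right in LPS vs. Untr, takes Tlr7 and Tlr8 past 0, and moves Met + LPS vs. LPS little.

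The second comparison, Met + LPS vs. LPS, asks how pretreatment with metformin altered the receptor transcripts of LPS-stimulated BMDMs. Tlr8, Tlr3, Tlr1 and Tlr4 were lower in Met + LPS, Tlr2 and Tlr13 were higher, and Tlr6, Tlr7 and Tlr9 did not pass the threshold. By limma, 6 of the 9 tested members differed with an adjusted p below 0.01, 2 higher and 4 lower, where 32.6% of all tested genes passed, 14.5% higher and 18.0% lower. Tlr8 was the only member past both cut-offs, with the fold cut-off here at 0.7 on the log2 scale, which 8.28% of the tested genes passed, 4.19% higher and 4.09% lower. The median log2 fold change was -0.12 over the 9 members and -0.03 over all tested genes, and the scaling changed no direction. The LPS libraries serve in both comparisons, so that the values of a gene in them are not independent.

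Tlr8 had 142 and 138 TPM in LPS and 77.8 and 76.3 TPM in Met + LPS. Both Met + LPS libraries lay well below both LPS libraries, with means of 140 ± 2.57 and 77.0 ± 1.03 TPM (SD, n = 2 each), 1.82-fold lower. The log2 fold change was -0.86 with an SE of 0.03 (adjusted p = 1.4e-05 in limma), it ranged from -0.87 to -0.84 over the fits that left out single libraries, and 2.85% of tested genes had a lower one. Its neighbour Tlr7 had 230 and 238 TPM in LPS and 253 and 241 TPM in Met + LPS. The log2 fold change of Tlr7 was 0.08 with a 95% interval of -0.01 to 0.17 (adjusted p = 0.142 in limma), so that a change of the size seen in Tlr8 lay outside its interval. Within a library the ratio of Tlr7 to Tlr8, which no scaling alters, was 1.34 in both Untr libraries, 1.62 and 1.72 in LPS and 3.25 and 3.15 in Met + LPS.

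Tlr3 had 49.1 and 53.6 TPM in LPS and 31.7 and 33.9 TPM in Met + LPS, 1.57-fold lower. Its log2 fold change of -0.63 (95% interval -0.78 to -0.48, adjusted p = 3.9e-04 in limma) lay short of the fold cut-off of 0.7, and both Met + LPS libraries remained above both Untr libraries. Tlr1 had 118 and 112 TPM in LPS and 84.8 and 88.7 TPM in Met + LPS, 1.33-fold lower (log2 fold change -0.40, adjusted p = 5.2e-04 in limma). Tlr4 had 40.4 and 43.1 TPM in LPS and 34.6 and 34.8 TPM in Met + LPS, 1.20-fold lower (log2 fold change -0.26, adjusted p = 0.00349 in limma). For Tlr4 the Met + LPS level was thus farther from the Untr level than the LPS level was, and for Tlr1 and Tlr3 it was nearer.

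The members that were higher in Met + LPS were Tlr2 and Tlr13. Tlr2 had 1348 and 1306 TPM in LPS and 1797 and 1769 TPM in Met + LPS, 1.34-fold higher (log2 fold change 0.43, 95% interval 0.33 to 0.52, adjusted p = 2.8e-04 in limma). Tlr13 had 163 and 161 TPM in LPS and 215 and 193 TPM in Met + LPS, 1.26-fold higher (log2 fold change 0.32, adjusted p = 0.00311 in limma). The calls of Tlr4 and Tlr13 were the least firm of the 6, and both were lost without the filter on low values, with the compared groups alone, without a mean-variance trend, and without the LPS B library. That of Tlr4 was also lost without either Met + LPS library (log2 fold changes of -0.26 and -0.25), and that of Tlr13 without the LPS A library (0.33). Tlr9 had 37.2 and 38.1 TPM in LPS and 44.2 and 41.6 TPM in Met + LPS (log2 fold change 0.18, 95% interval 0.04 to 0.33, adjusted p = 0.0422 in limma). Tlr6 had 27.8 TPM in both LPS libraries and 25.8 and 25.3 TPM in Met + LPS (log2 fold change -0.12, 95% interval -0.22 to -0.01, adjusted p = 0.0628 in limma). In none of the 9 members did the libraries of the 2 groups overlap, and this absence of overlap held for 73.8% of all tested genes.

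The third comparison, Met + LPS vs. Untr, uses the same Untr and Met + LPS libraries and so adds no independent evidence. The limma threshold was passed by 8 of the 9 tested members, 4 higher and 4 lower, against 75.1% of all tested genes, 16.3% higher and 58.8% lower. Only Tlr2 passed both cut-offs, with the fold cut-off again at 2, which 5.35% of the tested genes did, 3.18% higher and 2.16% lower. It had a mean of 1783 ± 19.5 TPM in Met + LPS (SD, n = 2), 24.8-fold that of Untr. The log2 fold change was 4.61 for Tlr2, 1.33 for Tlr3, 0.93 for Tlr1 and 0.31 for Tlr6. It was -1.84 for Tlr4, -1.35 for Tlr8 and -0.93 for Tlr13, and each of these stayed negative after rescaling (-1.31, -0.82 and -0.39). Tlr9 and Tlr7 changed sign with the scaling, Tlr9 from -0.48 to 0.05 and Tlr7 from -0.11 to 0.43. For Tlr8 the rescaled log2 fold change against Untr was 0.03 in LPS and -0.82 in Met + LPS. The libraries of the groups did not overlap in any of the 9 members, nor in 90.7% of all tested genes.

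The make-up of the family transcripts changed with treatment. Tlr2 supplied 6.24% and 5.85% of the summed TPM of the 10 genes in Untr, 62.5% and 61.6% in LPS and 70.1% and 70.7% in Met + LPS. Tlr13 supplied 33.1% and 32.2% in Untr, 7.58% and 7.62% in LPS and 8.39% and 7.70% in Met + LPS. The order of levels accordingly began with Tlr13, Tlr7 and Tlr8 in Untr and with Tlr2, Tlr7 and Tlr13 in both other groups, where Tlr4 stood seventh of the 10. The summed TPM of the 10 genes was 1190 in both Untr libraries, 2156 and 2118 in LPS and 2564 and 2503 in Met + LPS. Without Tlr2 the sum was 1116 and 1120 TPM in Untr, 808 and 813 TPM in LPS and 767 and 734 TPM in Met + LPS, and after rescaling it was 867 in both Untr libraries, 900 and 911 in LPS and 865 and 828 in Met + LPS. The larger sums after LPS thus rested mainly on Tlr2 on both scales. The 5 endosomal genes summed to 925 and 926 TPM in Untr, 622 and 629 TPM in LPS and 622 and 585 TPM in Met + LPS, and to 718 and 717, 692 and 705, and 701 and 660 after rescaling.

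**Figure D3:**
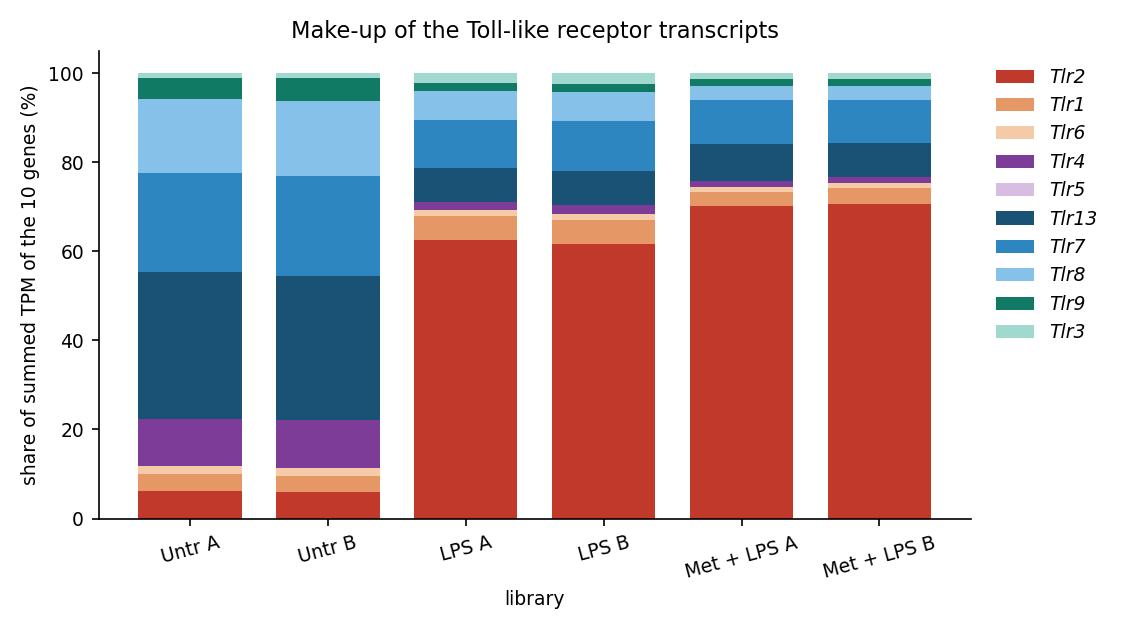
Share of each gene in the summed TPM of the 10 Toll-like receptor genes (vertical axis, %) in each of the 6 libraries, cell surface receptors at the bottom and endosomal receptors at the top of each bar. Tlr2 takes 5.85% to 6.24% of the Untr bars, 61.6% to 62.5% of the LPS bars and 70.1% to 70.7% of the Met + LPS bars.

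Ratios of 2 genes within a library do not depend on how libraries are scaled. The ratio of Tlr2 to Tlr4 was 0.594 and 0.539 in Untr, 33.3 and 30.3 in LPS and 51.9 and 50.8 in Met + LPS. Transcripts of the lipopeptide receptor thus went from fewer than those of the LPS receptor to a large excess. The ratio of Tlr2 to Tlr1 was 1.62 and 1.58 in Untr, 11.4 and 11.6 in LPS and 21.2 and 19.9 in Met + LPS, and that of Tlr2 to Tlr6 was 3.62 and 3.41, 48.5 and 47.0, and 69.6 and 69.9 in the same order. The transcript of the shared subunit therefore exceeded those of its partners in every library, and by most in Met + LPS. The ratio of Tlr1 to Tlr6, the pair whose reads may be divided uncertainly, was 2.23 and 2.16 in Untr, 4.25 and 4.05 in LPS and 3.29 and 3.50 in Met + LPS. The ratio of Tlr13 to Tlr8 was 2.00 and 1.92 in Untr, 1.15 and 1.17 in LPS and 2.77 and 2.53 in Met + LPS, and that of Tlr7 to Tlr9 stayed between 4.23 and 6.24. Each of these ratios differed between LPS and Met + LPS without overlap of the libraries. The ratios reuse the same members, and the share of other gene pairs that do so was not computed. Among single tested genes 73.8% did not overlap in this comparison. An exact permutation test of 2 libraries against 2 cannot go below a two-sided p of 0.333, so no p-value is given for the ratios.

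**Figure D4:**
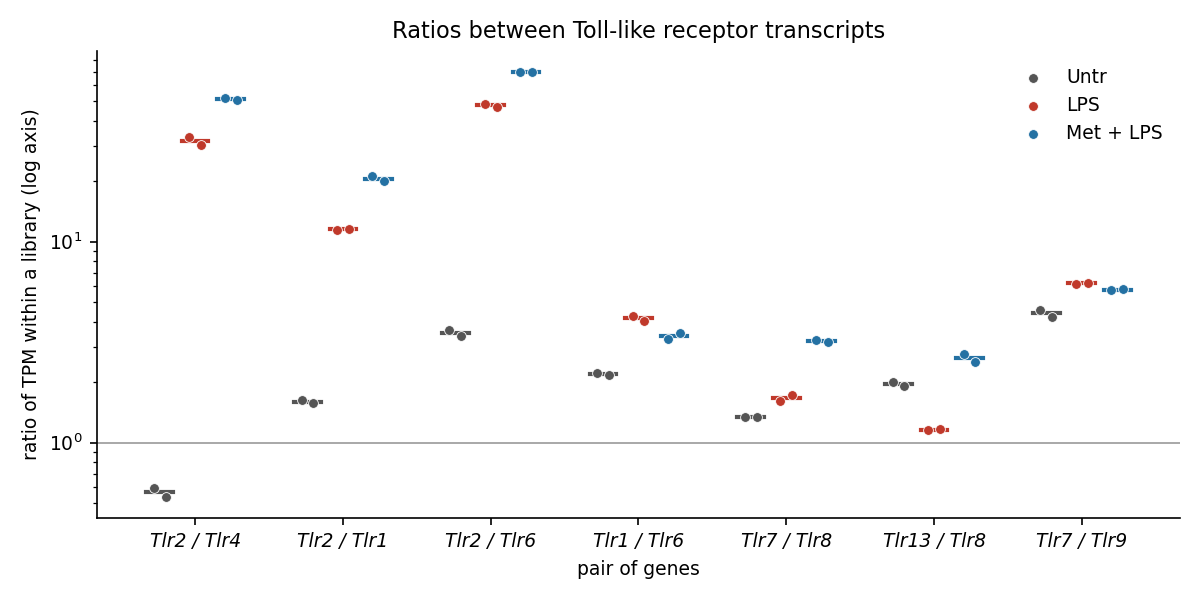
Ratio of the TPM of pairs of Toll-like receptor genes within each library (logarithmic axis) for Untr, LPS and Met + LPS; points are single libraries, bars are means of 2 and the line marks a ratio of 1. The ratio of Tlr2 to Tlr4 moves from 0.539 to 0.594 in Untr to 30.3 to 33.3 in LPS and 50.8 to 51.9 in Met + LPS.

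The genes whose pattern over the 6 libraries lay nearest to that of Tlr4, by the Euclidean distance of log2(TPM + 1) values centred on each gene's mean, were Gm10863, Slc35f6 and Marveld1 at distances of 0.0688, 0.0983 and 0.107. Slc35f6 had means of 81.3, 26.4 and 22.5 TPM in Untr, LPS and Met + LPS. Tlr4 also had the lowest log2 fold change of the members after LPS. For Tlr2, which had the highest, Maff, Hcar2 and Csf1 were nearest at distances of 0.333, 0.352 and 0.360. Csf1, the growth factor of macrophages, had means of 7.83, 192 and 207 TPM. The patterns of these genes are thus alike in these 6 libraries of 3 groups, which is a description only.

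The genes that act with the receptors were counted in lists by role, with the same limma threshold and on the deposited scale unless stated, and with the rescaled counts given where they differ. Of 5 tested accessory proteins of the surface receptors, 3 were higher and 1 was lower after LPS, and Lbp was not tested. After rescaling 5 were higher and 0 lower. Cd14, the co-receptor that hands LPS to TLR4, had 911 and 998 TPM in Untr and 2639 and 2886 TPM in LPS (log2 fold change 1.53, adjusted p = 1.3e-06). Ly96, the LPS-binding partner of TLR4, and Cd180, a relative of the Toll-like receptors, had log2 fold changes of 0.66 and 0.43. The other tested genes of the list were Cd36 (-0.22, adjusted p = 0.00934), which was lower, and Ly86 (-0.13), which did not pass, and both had positive values after rescaling (0.31 and 0.39). In Met + LPS vs. LPS 3 were lower, Ly86 (-0.62), Cd14 (-0.40) and Cd180 (-0.29), and 0 were higher in limma, although 1 was higher at an unadjusted p under 0.05 and 1 by voom.

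Of the 9 genes for trafficking, folding and processing of the endosomal receptors, 8 were lower and 0 higher after LPS in limma (0 higher also at an unadjusted p under 0.05 and by voom), but after rescaling 3 were higher and 2 lower, and the list's median of -0.41 lay near the -0.48 of all tested genes. Slc15a4, an endolysosomal transporter, and Cnpy3, a chaperone of the receptors, had log2 fold changes of -1.04 and -0.89. Lgmn, a protease, had -0.50 as deposited and 0.03 after rescaling. In Met + LPS vs. LPS 1 gene was higher and 1 lower, the cathepsin gene Ctsl (0.40) and Hsp90b1 (-0.40), the chaperone needed to fold most Toll-like receptors.

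Of 5 tested adaptors, 1 was higher and 1 lower after LPS, and after rescaling 4 were higher and 0 lower. Sarm1 was not tested. Myd88 had 86.1 and 89.6 TPM in Untr and 220 and 229 TPM in LPS (log2 fold change 1.35, adjusted p = 5.4e-07), and Ticam1 had 55.9 and 52.5 TPM in Untr and 41.5 and 40.3 TPM in LPS (log2 fold change -0.40, adjusted p = 5.0e-04, but 0.12 after rescaling). In Met + LPS the Ticam1 level was 93.4 and 85.7 TPM, above both other groups, with a log2 fold change against LPS of 1.11 (adjusted p = 2.8e-05), past both cut-offs. Myd88 (-0.36) and Pik3ap1 (-0.56), an adaptor to PI3K, were lower in Met + LPS vs. LPS, and the list counted 1 higher and 3 lower (1 and 2 after rescaling). Ticam1 encodes the adaptor of TLR3, the receptor gene that was itself lower in that comparison.

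Among 13 kinases and ubiquitin ligases, 8 were higher and 4 lower after LPS (10 and 2 after rescaling), among them Peli1 (4.07), Ikbke (1.74) and Tab1 (-2.56), and 1 was higher and 4 were lower in Met + LPS vs. LPS, among them Traf3 (0.51), Tab2 (-0.46) and Ikbke (-0.36). Of 8 tested inhibitors, 2 were higher and 4 lower after LPS (5 and 3 after rescaling), and Il1rl1 was not tested. Tnfaip3, which encodes a ubiquitin-editing enzyme, and Socs1 had log2 fold changes of 6.61 and 5.38, and Inpp5d, the gene of an inositol phosphatase, had -1.52. In Met + LPS vs. LPS 1 inhibitor was higher, Tollip (0.52), and 2 were lower, Socs1 (-0.81) and Tnfaip3 (-0.29).

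The pattern recognition receptors outside the family stood differently. Of 10 tested, 9 were higher and 1 lower after LPS (9 and 0 after rescaling), and 7 passed both cut-offs, with a median log2 fold change of 2.99 against -0.18 for the Toll-like receptor genes. The list also holds Mb21d1, a symbol that no gene of the expression table carried, so that it was not tested. The highest were Clec4e (5.32), a receptor of mycobacterial cord factor, Ifih1 (4.73), a cytosolic sensor of double-stranded RNA, and Nod2 (4.37), a sensor of bacterial muramyl dipeptide. In Met + LPS vs. LPS 2 were higher and 6 lower, with a median of -0.33 against -0.12, and only Nod1 passed both cut-offs (-0.91), followed by Zbp1 (-0.70) and Nod2 (-0.51). Ifih1 was higher in that comparison (0.42, adjusted p = 2.1e-04 in limma), whereas Tlr3, the endosomal sensor of double-stranded RNA, was lower (-0.63). The difference between the 2 lists was described by these counts and medians and was not tested.

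**Figure D5:**
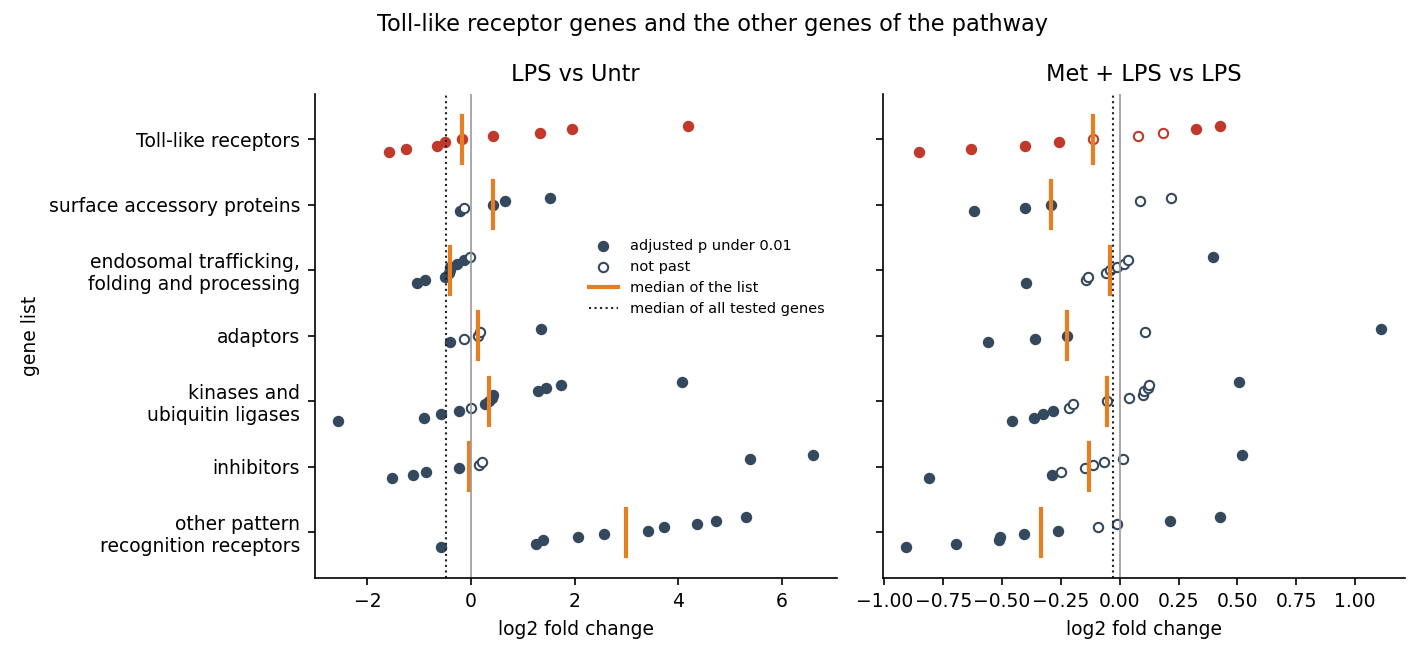
Log2 fold change of each tested Toll-like receptor gene and of each tested gene of the 6 lists (rows) for LPS vs. Untr (left) and Met + LPS vs. LPS (right); filled points have an adjusted p-value under 0.01, orange bars are the median of each list and dotted lines the median of all tested genes. The medians of the Toll-like receptor genes are -0.18 and -0.12, and those of the other pattern recognition receptors 2.99 and -0.33.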

How the data were processed

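The 6 libraries were grouped by the sample labels. The authors deposited TPM values per gene and library, made, per the labels and the study's methods, by aligning reads to GRCm38 with STAR 2.6.1d, handling alignments with SAMtools 1.9 and counting per gene with featureCounts (Subread 1.6.3). How counts became TPM is not given in the sources used here, and they do not show RNA per cell. The study's own test used counts. Since TPM are not counts, they were tested here on the log scale.

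A filter kept the 12755 genes that reached 1 TPM in 2 or more libraries, and limma 3.58.1 (R 4.3.3) was run on them (lmFit, eBayes with trend, all 6 libraries in a common fit, 3 residual degrees of freedom) on log2(TPM + 1), which understates fold changes of low genes, with Benjamini-Hochberg adjustment over all tested genes. "Rescaled" means TPM divided by each library's median ratio over genes. Multiplying TPM by exonic length (GENCODE annotation of GRCm38, matched for 54495 of 54532 genes) gave whole reads within 0.02 reads for 96.3% to 96.6% of the values above 0, and these reads served for voom. Intervals from reads cover counting error only and leave out the spread between cultures, since the reads of a group were pooled. No molecular identifiers were used, so that repeated reads of a molecule could not be removed.

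The members, the gene lists, the markers and the motifs were chosen with earlier results of these data known. The genes named are the 10 members, Tlr11 and Tlr12, the up to 3 genes of each list with the largest absolute log2 fold change among those with an adjusted p-value under 0.01, the 3 genes nearest in pattern to Tlr4 and to the members with the highest and lowest change after LPS, and the genes of the response check; the comparison of Ifih1 with Tlr3 follows from that rule in LPS vs. Untr and was added for Met + LPS vs. LPS after its value was seen, as were Cd36 and Ly86 for LPS vs. Untr. The main limma fit was tested on simulated data for LPS vs. Untr with large changes only. Small changes, the other comparisons and a shift of the median gene were not simulated. The settings varied were the pseudocount (0.1), the filter (none, or 5 TPM), the scaling (median ratio), the libraries fitted (compared groups only, or without each library), a replicate block, the trend, the thresholds (adjusted p of 0.05, or a log2 fold cut-off of 1) and the test (voom).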

Additional observations from a re-analysis of the deposited data

How the results depend on the processing

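The number of Toll-like receptor genes past both cut-offs in LPS vs. Untr was 1, and it was 2 (Tlr2 and Tlr3) with a pseudocount of 0.1, with median-ratio scaling and with voom on recovered reads, 5 (Tlr1, Tlr2, Tlr3, Tlr4 and Tlr13) with a log2 fold cut-off of 1, and 1 to 2 when each library was left out, with Tlr3 passing without LPS A. In Met + LPS vs. LPS the number was 1, and 0 with a fold cut-off of 1; in Met + LPS vs. Untr it was 1, and 4 (Tlr2, Tlr3, Tlr4 and Tlr8) with that cut-off. When each library was left out, it was 1 in both. Median-ratio scaling reversed Tlr7 (0.34) and Tlr8 (0.026) in LPS vs. Untr and Tlr7 (0.43) and Tlr9 (0.048) in Met + LPS vs. Untr, because it moves the median of all tested genes in LPS vs. Untr from -0.48 to -0.01. By the adjusted p-value alone, 7 to 9 members passed in LPS vs. Untr, 4 to 7 in Met + LPS vs. LPS and 8 to 9 in Met + LPS vs. Untr over all alternatives. Of 324 values of single members under the alternatives, 304 kept direction and side of the threshold, 16 lost the threshold and 4 reversed. The deviations of A from B correlated by -0.0037 to 0.028 between groups. Such values cannot tell whether libraries of the same letter come from the same animals. With a replicate block 1, 1 and 1 members passed both cut-offs in the 3 comparisons, and no call changed. With 451 or more reads behind every value of the tested members, depth limits only Tlr5, Tlr11 and Tlr12 among the Toll-like receptor genes. Some tested genes of the lists and markers rested on fewer reads, 1 inhibitor on 12 to 74 per library.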
